A study of Mus musculus with 6 samples.

Results

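The 10 genes described here encode sensors of double-stranded RNA and the proteins that pass their signal on: Ddx58 (also written Rigi), Ifih1, Dhx58, Tlr3, Eif2ak2, Zbp1, Adar, Mavs, Tbk1 and Irf3. They were chosen by name for these roles from a table of 55416 genes, with the siPkm2 against siNC values of the same libraries already known. The fold changes and calls of this contrast therefore describe the members and are no independent test of them. All 10 passed the filter on low counts that left 15269 genes for testing. RNA-seq had been made from primary chondrocytes of mouse knee joints in 2 groups of 3 libraries, siNC (control siRNA, genotype given as WT) and siPkm2 (siRNA against Pkm, the pyruvate kinase gene). The comparison asked which transcripts differ between cells given siPkm2 and cells given siNC. Tissue is labelled neonatal, while the study's methods describe adult mice, and the genotype labels of the siPkm2 libraries read PKM2, PKM3 and PKM4 knockdown for replicates 1, 2 and 3 although all 3 titles name siPKM2. Both groups had received a short RNA duplex, and no library without one was analysed here. The duplexes differed in sequence between the groups. A change that follows loss of Pkm and one that follows the siPkm2 duplex itself therefore cannot be told apart here. All cells were cultured in DMEM/F12 with serum. The labels do not say whether replicates came from separate animals or cultures, so the p-values measure only the spread between these libraries, which may be technical.

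Double-stranded RNA, made by replicating viruses or by pairing of the cell's own transcripts, is detected in the cytosol by the RIG-I-like receptors RIG-I (Ddx58) and MDA5 (Ifih1), which are modulated by LGP2 (Dhx58), and in endosomes by TLR3. RIG-I and MDA5 signal through MAVS on the outer mitochondrial membrane to the kinase TBK1, which phosphorylates the transcription factor IRF3 and so induces interferon. Several sensors are themselves interferon-stimulated genes, whereas MAVS, TBK1 and IRF3 are held at a steadier level in most cells. Chondrocytes can respond to double-stranded RNA through these receptors.

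Total counts lay between 22316996 and 25691029 per library. Pkm, the targeted gene (ENSMUSG00000032294, chr9:59656368-59679375, + strand, GRCm38), was counted at 2335, 2746 and 1674 CPM (counts scaled to a common library size with TMM factors) in siNC 1, 2 and 3 and at 336, 541 and 309 CPM in siPkm2 1, 2 and 3. The groups did not overlap. The log2 fold change was -2.51 by group alone (SE 0.33, Benjamini-Hochberg adjusted p = 0.0738, quasi-likelihood test of edgeR), which did not pass the threshold, and -2.53 with the replicate number as a block (SE 0.13, adjusted p = 0.00932 by edgeR). These gene counts do not separate the PKM1 and PKM2 isoforms. Libraries with the same replicate number deviated together from their group means, so each fitted gene is given by group alone and with that block. Both replicate 2 libraries stood apart from the others. Summed CPM of 8 chondrocyte markers was 9936 in siNC 2 and 13790 in siPkm2 2, against 37280 to 45510 in the other libraries. Summed CPM of 7 macrophage markers was 61.0 and 38.5 there against 7.225 to 14.9. Most of that sum in the replicate 2 libraries was Cd68, with Ptprc, Adgre1, Itgam and Fcgr1 at or near 0. Of 3 T and NK cell genes, Cd3e and Ncr1 had no count, and Ncam1 measured 28.75 to 52.65 CPM. The 4 endothelial markers summed to at most 1.98 CPM. Of 3 plasmacytoid dendritic cell markers, Siglech and Ccr9 were near 0 and Tcf4 measured 119 to 286 CPM. The 4 fibroblast or perichondrial markers summed to 5768 CPM in siNC 2 and 6405 CPM in siPkm2 2. Their sum was 3973 to 13020 CPM in the other libraries. In bulk RNA, fewer cells of a type and less RNA per cell cannot be told apart, and the part of these markers in the values below was not tested.

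RefSeq promoter windows (GRCm38.p6, 250 bases before to 50 after the start) were on hand for 8 members, all but Zbp1 and Dhx58. They were searched on both strands for the interferon-stimulated response element, the site bound by the ISGF3 and IRF transcription factors, written here as GAAANNGAAA or its reverse complement TTTCNNTTTC. Of the 8 members, 3 held a match, which also occurs in 3.99% of 27025 genes and in 3.44% of 32851 promoters. The 3 windows are shown so that the matched letters can be read in place. Their genes, 2 RIG-I-like receptors and PKR, rose in the blocked fit below. So did Tlr3, Adar and, by less than a fold of 2, Tbk1, whose windows held no match. Mavs and Irf3 had no match either and did not rise. The members were chosen by role with this contrast known, so nothing is read from how matches and rises fall together. Capitals mark the match, which lies after the start and so in transcribed sequence in each of them, with its first base at +3 in Ddx58 (chr4:40239776-40240075, - strand), at +33 in Ifih1 (chr2:62646206-62646505, - strand) and at +19 in Eif2ak2 (chr17:78882523-78882822, - strand).
Ddx58: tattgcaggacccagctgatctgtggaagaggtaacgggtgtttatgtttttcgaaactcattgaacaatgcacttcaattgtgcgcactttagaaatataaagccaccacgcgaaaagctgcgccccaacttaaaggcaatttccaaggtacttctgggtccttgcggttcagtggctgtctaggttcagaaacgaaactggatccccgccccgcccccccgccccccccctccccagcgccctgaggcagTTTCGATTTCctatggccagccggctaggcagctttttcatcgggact
Ifih1: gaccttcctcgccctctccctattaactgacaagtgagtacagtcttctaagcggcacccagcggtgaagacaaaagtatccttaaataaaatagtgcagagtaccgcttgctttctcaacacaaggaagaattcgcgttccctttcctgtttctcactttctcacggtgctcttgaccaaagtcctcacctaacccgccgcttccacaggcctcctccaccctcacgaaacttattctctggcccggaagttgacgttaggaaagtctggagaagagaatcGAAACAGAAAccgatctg
Eif2ak2: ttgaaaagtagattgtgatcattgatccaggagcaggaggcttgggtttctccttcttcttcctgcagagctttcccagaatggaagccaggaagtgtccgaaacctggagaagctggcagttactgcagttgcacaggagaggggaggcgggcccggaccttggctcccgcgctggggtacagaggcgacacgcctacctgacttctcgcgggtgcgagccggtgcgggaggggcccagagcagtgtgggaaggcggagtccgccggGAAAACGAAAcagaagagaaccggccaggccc
A search for TTCNNNGAA, the core of the STAT-bound GAS element, found a match in the Eif2ak2 window and in 1 of 3 windows of Adar, and in 8.3% of all promoters. A match is a run of letters and not a measured binding site, and the absence of one says only that these letters are not in the window. Trim25 and the other genes closest to the receptors in pattern, given further on, were not searched.

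Ddx58 encodes RIG-I, the helicase that recognises short double-stranded RNA with a triphosphate end (ENSMUSG00000040296, chr4:40203773-40239828). It was counted at 42.4, 189 and 50.7 CPM in siNC 1, 2 and 3, and at 167.5, 259 and 149.7 CPM in siPkm2 1, 2 and 3. Every siPkm2 library was above siNC 1 and siNC 3, while siNC 2 was above siPkm2 1 and siPkm2 3, so the groups overlapped through that single control library. The group means were 94.0 ± 82.3 and 192 ± 58.6 CPM (SD, n = 3), and the log2 fold change by group alone was 1.03 (SE 0.60, adjusted p = 0.429 by edgeR). With the replicate block, Ddx58 rose by 1.33 on the log2 scale (SE 0.30, adjusted p = 0.0325 by the same test).

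Ifih1 encodes MDA5, the receptor for long double-stranded RNA (ENSMUSG00000026896, chr2:62595798-62646255). It measured 6.61, 77.1 and 7.62 CPM in the siNC libraries and 50.8, 113 and 38.2 CPM in the siPkm2 libraries. Again siNC 2 alone reached the siPkm2 range, at 10.8 times the mean of siNC 1 and siNC 3. The log2 fold change was 1.15 by group alone (SE 1.01, adjusted p = 0.610 by edgeR) and 1.89 with the block (SE 0.47, adjusted p = 0.0419 by edgeR), so MDA5 transcripts passed the test with the block and not without it. Dhx58 encodes LGP2, which lacks the signalling domains of the other two and modulates them (ENSMUSG00000017830, chr11:100694884-100704271). It was measured at 3.76, 58.3 and 4.335 CPM in siNC and at 34.2, 99.5 and 32.04 CPM in siPkm2. Dhx58 rose by 2.19 on the log2 scale with the block (SE 0.50, adjusted p = 0.0350 by edgeR), against 1.32 by group alone (SE 1.12, adjusted p = 0.596 by edgeR).

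Per transcript length, the makeup of the 3 RIG-I-like receptors differed along with their summed level. Their summed TPM (transcript abundance per length, the authors' value) was 22.6, 168.6 and 30.0 in siNC 1, 2 and 3 and 111.2, 234.1 and 103.2 in siPkm2 1, 2 and 3. Ddx58 made up 77.8% and 79.85% of the sum in siNC 1 and siNC 3, the libraries with the lowest sums. Its share was 62.6% and 62.3% in siPkm2 1 and siPkm2 3, and 53.5% and 50.8% in siNC 2 and siPkm2 2. Dhx58 went the other way, from 12.9% and 12.15% in siNC 1 and siNC 3 through 23.3% and 25.05% in siPkm2 1 and siPkm2 3 to 29.85% and 32.75% in siNC 2 and siPkm2 2. Ifih1 stayed the smallest share in all 6 libraries, between 7.99% and 16.6%. RIG-I was thus the most abundant of the 3 receptor transcripts in every library, and LGP2 made up its largest shares in the 2 libraries with the highest sums.

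**Figure D1:**
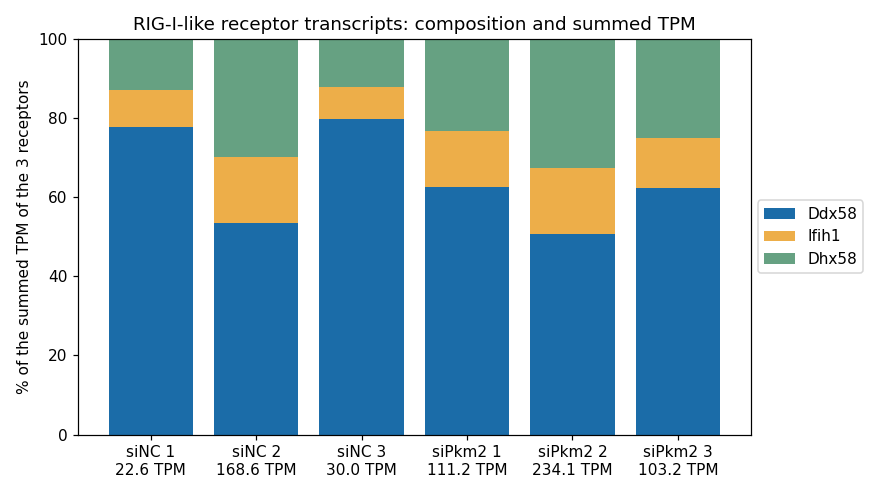
Share (%) of Ddx58, Ifih1 and Dhx58 in their summed TPM in each library, with the sum written under each bar. Ddx58 holds 77.8% and 79.85% in siNC 1 and siNC 3 and 50.8% in siPkm2 2, where the sum is largest at 234.1 TPM.

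Tlr3, the endosomal receptor (ENSMUSG00000031639, chr8:45395665-45411080), was the least abundant member by TPM in siNC 2 and in all 3 siPkm2 libraries. It measured 3.68, 19.1 and 3.55 CPM in siNC and 13.4, 24.8 and 10.4 CPM in siPkm2. The siNC 2 value lay above siPkm2 1 and siPkm2 3, as for the cytosolic receptors. Tlr3 rose by 1.22 on the log2 scale with the block (SE 0.31, adjusted p = 0.0444 by edgeR), and its log2 fold change was 0.88 by group alone (SE 0.74, adjusted p = 0.586 by edgeR).

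Eif2ak2, Adar and Zbp1 encode other double-stranded or Z-form RNA-binding proteins. Eif2ak2 encodes PKR, which phosphorylates the initiation factor eIF2alpha and so slows translation (ENSMUSG00000024079, chr17:78852564-78882573). It was counted at 36.3, 131 and 34.9 CPM in siNC and at 145, 168 and 111 CPM in siPkm2. Here siNC 2 lay between siPkm2 3 and siPkm2 1. Eif2ak2 rose by 1.34 on the log2 scale with the block (SE 0.33, adjusted p = 0.0397 by edgeR), and by group alone its log2 fold change was 1.06 (SE 0.55, adjusted p = 0.371 by edgeR). With siNC 2 left out and no block, Eif2ak2 alone of the 10 members was called, at a log2 fold change of 1.99 (adjusted p = 0.0390 by edgeR), where 0.417% of the genes were called higher.

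Adar encodes ADAR1, which deaminates adenosines in double-stranded RNA (ENSMUSG00000027951, chr3:89715022-89753446). Its interferon-inducible long form and its constitutive short form share most exons, and the gene counts do not separate them. Adar was measured at 36.2, 138 and 43.0 CPM in siNC and at 122, 198.5 and 122 CPM in siPkm2. The 2 siPkm2 libraries of replicates 1 and 3 had close to the same level, below siNC 2 and above the other controls. Adar rose by 1.26 on the log2 scale with the block (SE 0.25) and had the lowest adjusted p of the 10 members there, 0.0250 by edgeR, against 1.03 by group alone (SE 0.54, adjusted p = 0.384 by edgeR).

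Zbp1, a sensor of Z-form nucleic acid that can start cell death through RIPK3 (ENSMUSG00000027514, chr2:173206612-173218923), spanned the widest range of the members. It had 3, 1215 and 12 counts in siNC 1, 2 and 3, or 0.120, 49.15 and 0.525 CPM. In siPkm2 1, 2 and 3 it had 286, 3055 and 296 counts, or 13.3, 119 and 13.5 CPM. siNC 2 was 152 times the mean of siNC 1 and siNC 3, and siPkm2 2 was 8.85 times the mean of siPkm2 1 and siPkm2 3. The ratio within pair 1 was 111.0 with a 95% counting interval of 37.6 to 541.4, since siNC 1 held 3 counts, and within pair 3 it was 25.8 with an interval of 14.5 to 50.4 (exact, covering counting error only). Zbp1 did not pass the threshold in either edgeR fit. Its log2 fold change was 1.55 by group alone (SE 1.88, adjusted p = 0.730 by edgeR) and 3.05 with the block (SE 0.84, adjusted p = 0.0532 by edgeR), while DESeq2 with the block gave 4.30 (adjusted p = 0.004145). Without siPkm2 2 and without the block the estimate turned to -0.30. With both replicate 2 libraries out and the block kept it was 5.40 (adjusted p = 0.000267 by edgeR). That fit rests on 2 libraries per group, with siNC at 3 and 12 counts. With both replicate 1 libraries out instead, the estimate was 2.32 (adjusted p = 0.129 by edgeR). It was 2.66 with both replicate 3 libraries out (adjusted p = 0.189 by edgeR).

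**Figure D2:**
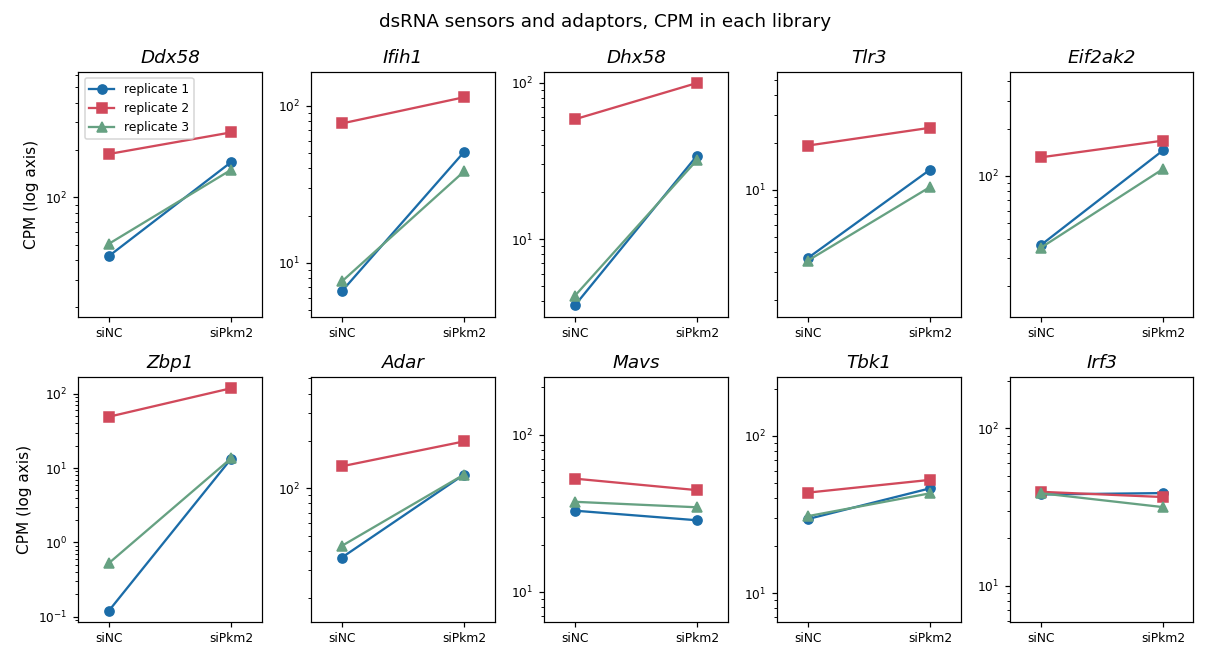
CPM (log axis, a separate range for each gene) of the 10 members in siNC and siPkm2, with lines joining libraries of the same replicate number. In 8 panels all 3 lines go up and replicate 2 starts highest; for Mavs all 3 lines go down, and for Irf3 they stay between 31.6 and 39.6 CPM.

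The shared signalling members differed little by comparison. Mavs, the mitochondrial adaptor (ENSMUSG00000037523, chr2:131234063-131248025), measured 32.8, 52.5 and 37.4 CPM in siNC and 28.5, 44.35 and 34.5 CPM in siPkm2. It was lower in siPkm2 in each of the 3 pairs, at 0.869, 0.845 and 0.923 times the paired control, with groups that overlapped. The log2 fold change was -0.19 by group alone (SE 0.24, adjusted p = 0.745 by edgeR) and -0.19 with the block (SE 0.08, adjusted p = 0.154 by edgeR), and it was 0.03 without siNC 2. Tbk1, the kinase on which MAVS and the TLR3 adaptor converge (ENSMUSG00000020115, chr10:121546455-121586787), measured 29.6, 43.6 and 30.9 CPM in siNC and 46.4, 52.5 and 43.1 CPM in siPkm2. The control siNC 2 lay just above siPkm2 3, so the groups overlapped by that library. Tbk1 rose with the block, by 0.47 on the log2 scale (SE 0.10, adjusted p = 0.0326 by edgeR), which is under a fold of 2, and by group alone the value was 0.45 (SE 0.19, adjusted p = 0.292 by edgeR).

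Irf3, the transcription factor that TBK1 phosphorylates (ENSMUSG00000003184, chr7:44997648-45002848), was nearly level across libraries. It measured 38.0, 39.6 and 38.75 CPM in siNC and 38.8, 36.65 and 31.6 CPM in siPkm2. The siNC values spread by 0.763 CPM (SD, n = 3), the narrowest of the 10 members, and siNC 2 was 1.03 times the mean of siNC 1 and siNC 3. The log2 fold change was -0.12 in both fits (SE 0.13 and adjusted p = 0.703 by group alone, SE 0.10 and adjusted p = 0.390 with the block, both by edgeR).

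By TPM, the order of the members also differed between libraries. Irf3 stood first in siNC 1 and siNC 3, at 56.6 and 61.0 TPM, and Zbp1 stood last there. Ddx58 stood first in siNC 2 at 90.3 TPM and in siPkm2 1 and siPkm2 3 at 69.7 and 64.3 TPM. Zbp1 led in siPkm2 2 at 167.1 TPM, ahead of Ddx58 at 118.9 TPM. In group means Ddx58 was at 43.9 ± 40.3 TPM in siNC and 84.3 ± 30.1 TPM in siPkm2, and Irf3 at 61.9 ± 5.85 and 54.0 ± 4.63 TPM (SD, n = 3). In siNC, Ddx58 and Irf3 thus differed by less than the spread of Ddx58. Zbp1, at 26.6 ± 45.0 TPM in siNC and 68.3 ± 85.6 TPM in siPkm2, could not be placed against any of its neighbours beyond that spread. Summed over the 10 members, TPM was 140.1, 493.7 and 168.9 in siNC and 324.1, 665.9 and 305.6 in siPkm2.

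Seen pair by pair, 8 members were higher in siPkm2 in all 3 pairs, where 30.5% of all genes tested were. All 8 had their smallest ratio in pair 2. Ddx58 was 3.96, 1.37 and 2.95 times its paired control in pairs 1, 2 and 3. Ifih1 was 7.68, 1.47 and 5.01 times its control, and Dhx58 9.08, 1.71 and 7.39 times. The ratios of Tlr3 (3.65, 1.30 and 2.94), Eif2ak2 (4.004, 1.28 and 3.17) and Adar (3.37, 1.44 and 2.84) had the same order of pairs, with Tbk1 between 1.21 and 1.57. On the CPM scale the order was not the same, since Dhx58 and Zbp1 had their largest difference, 41.2 and 69.7 CPM, in pair 2. The median log2 ratio of the members was 1.925 in pair 1, 0.42 in pair 2 and 1.56 in pair 3, against -0.02, 0.01 and -0.00476 for all genes tested.

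**Figure D3:**
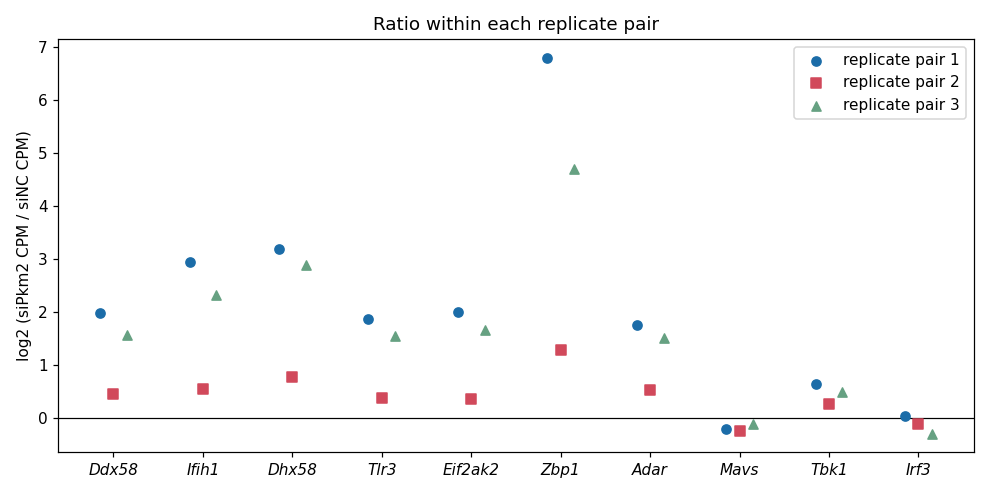
Log2 ratio of siPkm2 to siNC CPM of each member in replicate pairs 1, 2 and 3. For the 8 members above 0 in every pair, the square of pair 2 is the lowest point, while Mavs lies below 0 in all 3 pairs.

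Among the controls, the sensors stood highest in siNC 2. In that library, 7 of the 10 members were over 2 times the mean of siNC 1 and siNC 3, against 11.5% of all genes tested. The 7 were Ddx58, Ifih1, Dhx58, Tlr3, Eif2ak2, Zbp1 and Adar, between 3.48 times for Adar and 152 times for Zbp1. In siPkm2 2, 4 members (Ifih1, Dhx58, Tlr3 and Zbp1) were over 2 times the mean of siPkm2 1 and siPkm2 3, against 9.46% of all genes. These are the same 2 libraries in which the chondrocyte markers were lowest and Cd68 highest, and the part of those markers was not tested.

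Across the whole table, edgeR by group alone called no member and 0.0% of the genes at a fold over 2 and an adjusted p under 0.05. At an unadjusted p under 0.05 it held 17.6% of the genes and again no member. DESeq2 by group alone called 430 genes and no member, and gave no adjusted p for Dhx58 and Zbp1. That is 1.53% of the 28059 genes with at least 1 count, a wider set than the filtered genes of edgeR. With the replicate block, 6 members (Ddx58, Ifih1, Dhx58, Tlr3, Eif2ak2 and Adar) were called higher in siPkm2, where 2.65% of the genes were, and no member was among the 3.18% called lower. Without the fold threshold 7 members passed in the higher direction, Tbk1 being the seventh, beside 12.3% of the genes, and none in the lower direction, beside 10.8%. No member had all siPkm2 libraries above all siNC libraries, which 12.0% of the genes did. Since the members were chosen with this contrast known, nothing is read from the distance between their counts and these percentages. The median log2 fold change of the members was 1.03 by group alone and 1.30 with the block, against -0.02 and -0.01 for all genes tested. With both libraries of replicate 1, or both of replicate 3, taken out of the blocked fit, 0 genes and no member passed, Pkm included. The median log2 fold change of the members was then 1.003 and 1.155. With both of replicate 2 taken out, 7 members passed, the 6 above and Zbp1, with the block (beside 4.94% of the genes called higher) and by group alone (beside 2.06%).

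**Figure D4:**
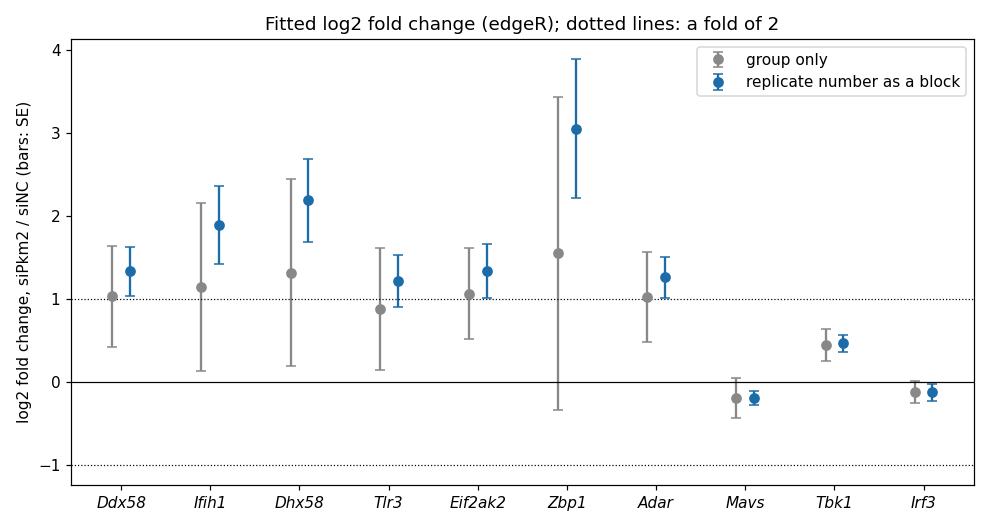
Fitted log2 fold change (siPkm2 over siNC) of each member with its SE, by group alone (grey) and with the replicate number as a block (blue), with dotted lines at a fold of 2. The block raises the estimate of Zbp1 from 1.55 to 3.05 and narrows the bar of Ddx58 from 0.60 to 0.30.

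The other genes of the pathway were taken from lists of 81 names, of which 57 were tested. Of these 57, 6 were called higher and 0 lower with the block, and 17 and 6 passed at an adjusted p under 0.05 with no fold threshold. Over all genes tested these shares were 2.65% and 3.18%, and 12.3% and 10.8%, so that 0 or 1 call in a list of 6 to 16 genes is close to the background. None was called by group alone, and the median log2 fold change was 0.25 with the block. Trim25, the ubiquitin ligase that activates RIG-I, measured 35.2, 171 and 39.3 CPM in siNC and 125, 222 and 119 CPM in siPkm2 and rose by 1.26 with the block (SE 0.29, adjusted p = 0.0357 by edgeR), against 0.92 by group alone (adjusted p = 0.519). It was the single gene called among 12 regulators of RIG-I, MDA5 and MAVS. Ddx60, a helicase reported to assist RIG-I, was the single one called among 16 other double-stranded RNA-binding proteins, at 0.520, 31.2 and 1.23 CPM in siNC and 21.3, 67.2 and 19.6 CPM in siPkm2 (log2 fold change 2.98 with the block, SE 0.78, adjusted p = 0.0471 by edgeR, and 1.71 by group alone, adjusted p = 0.585). Mlkl, the pore-forming protein that acts after RIPK3, was the single one called among 6 partners of ZBP1 in cell death, at 4.32, 29.1 and 4.47 CPM in siNC and 18.0, 43.2 and 16.1 CPM in siPkm2 (log2 fold change 1.44 with the block, SE 0.31, adjusted p = 0.0307 by edgeR, and 1.03 by group alone, adjusted p = 0.580). As with the sensors, siNC 2 was far above the other controls for all 3 of these genes. Neither the 12 partners that act downstream of MAVS and TLR3 nor the 6 eIF2alpha kinases, subunits and phosphatase genes other than PKR held a called gene. The other 3 called genes, Sting1, Trex1 and Ifi204, belong to the sensing of cytosolic DNA.

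Of the pathway genes that were not called, 3 are named after their values were seen. Traf6, an adaptor ligase, measured 21.3, 26.6 and 23.4 CPM in siNC and 43.0, 46.45 and 43.1 CPM in siPkm2, with groups that did not overlap (log2 fold change 0.90 with the block, SE 0.09, adjusted p = 0.0110 by edgeR, and 0.90 by group alone, adjusted p = 0.0942). Ikbke, the kinase most like TBK1, went the other way, at 23.1, 82.3 and 22.5 CPM in siNC and 14.1, 60.6 and 14.35 CPM in siPkm2, and fell by 0.60 with the block (SE 0.10, adjusted p = 0.0179 by edgeR), with a log2 fold change of -0.52 by group alone (adjusted p = 0.783). Of the 2 kinases that phosphorylate IRF3, Tbk1 was therefore higher and Ikbke lower in siPkm2 with the block, and both were higher in siNC 2 than in the other controls. Irf7, the interferon-inducible relative of Irf3, measured 3.12, 284 and 4.25 CPM in siNC and 80.9, 414 and 60.8 CPM in siPkm2, and did not pass with the block (log2 fold change 2.95, SE 0.88, adjusted p = 0.0648 by edgeR) or by group alone (0.93, adjusted p = 0.830).

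**Figure D5:**
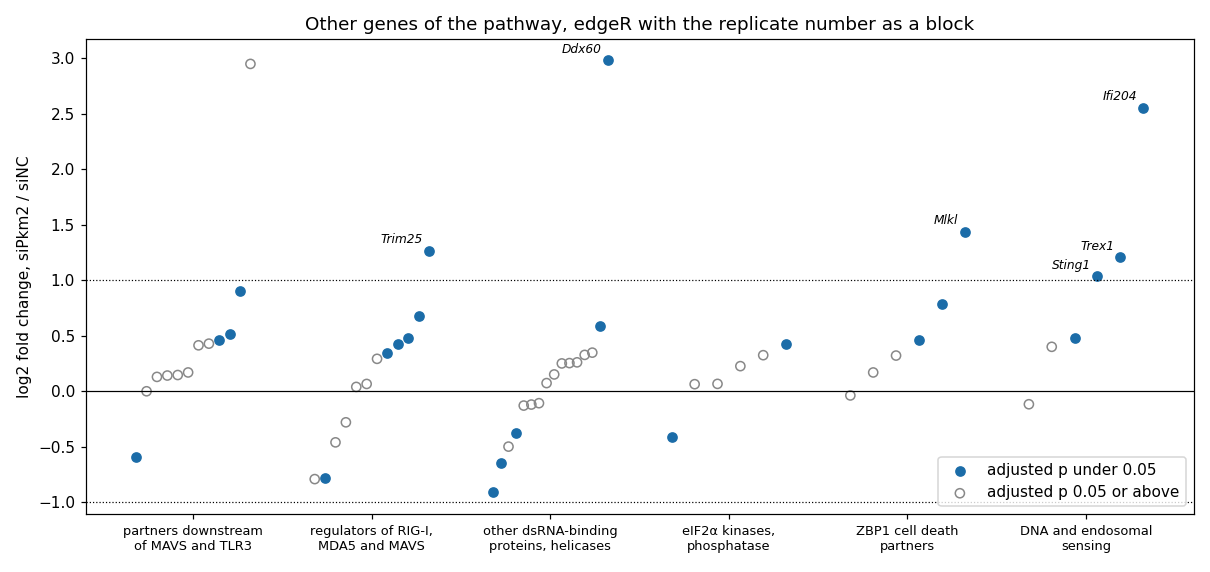
Log2 fold change (siPkm2 over siNC, replicate block) of the tested genes of 6 pathway lists, filled where the adjusted p was under 0.05, with dotted lines at a fold of 2. Ddx60 at 2.98 and Ifi204 at 2.55 are the highest filled points, and no gene lies below -1 on the log2 scale.

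Transcripts of the interferons themselves were near the limit of detection. Of 21 interferon genes, 17 had no count in any library. Ifnb1, the interferon first induced by IRF3 in most cells, had 0, 5 and 0 counts in siNC 1, 2 and 3 and 0, 28 and 0 counts in siPkm2 1, 2 and 3. It was thus seen in the 2 libraries of replicate 2 alone, where the ratio was 5.39 with a 95% counting interval of 2.05 to 17.9 (exact, counting error only). Ifna16 had 1 count, in siNC 2, and Ifna4 had 1 count, in siPkm2 2. Ifnz, one of a cluster of near-identical genes whose reads may be shared, had 4, 10 and 14 counts in siNC and 23, 7 and 27 in siPkm2 (adjusted p = 0.281 with the block by edgeR). At this depth no difference in interferon transcripts was detectable in pairs 1 and 3 for Ifnb1, which was at 0 in all 4 of those libraries.

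The 5 genes whose pattern over the 6 libraries was most like the mean of Ddx58, Ifih1 and Dhx58 were, outside the members, Trim25, Herc6, Ifit3, Ifi44 and Zc3hav1, with a Pearson r on log2(CPM + 0.5) from 0.9974 to 0.9995 among 15266 genes. Ifit3, for example, measured 10.3, 410.4 and 14.7 CPM in siNC and 209, 612 and 172 CPM in siPkm2. On the same measure Adar ranked 16th, Tlr3 25th, Zbp1 31st, Eif2ak2 111th and Tbk1 119th, all with an r of 0.98 or above, while Mavs ranked 4407th (r 0.435) and Irf3 8482nd (r -0.174). The r describes 6 libraries that share 2 treatments and 3 replicate numbers, with siNC 2 and siPkm2 2 setting much of its range.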

How the data were processed

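Estimated counts and TPM per gene were deposited by the authors for 6 RNA-seq libraries, and the counts were rounded to whole numbers here. The authors' table also holds their own comparison of the groups (a fold ratio, a log2 fold change, p-values and adjusted p-values per gene), which was not used. The submitters' processing notes name mm9 and edgeR, the identifiers are Ensembl's, and the aligner and counter are not given in the sources used here. Positions are from GENCODE M21 (GRCm38).

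The members and pathway lists were chosen with earlier results of these data known. edgeR 4.0.16 (R 4.3.3) with TMM factors, its expression filter and its quasi-likelihood test was fitted to all 15269 genes, with p-values adjusted by the Benjamini-Hochberg method over all of them. A gene was called at a fold over 2 and an adjusted p under 0.05. The labels number both groups 1 to 3. Deviations from the group means correlated at r = 0.625, 0.726 and 0.596 between libraries of the same number and at most at 0.126 otherwise. These deviations are centred within each group of 3, so a positive r for the same number pushes the others down. From these same libraries the numbers were taken to pair them, and the fit with that block stands beside the one by group alone. Library pairs within a group differed beyond sampling noise at 52.6% to 73.4% of genes, so none was a copy of another. Alternatives were DESeq2 1.42.0, limma 3.58.1 on log2(TPM + 1), other size factors and filters, and libraries left out. Named were all members, Pkm, the pathway genes called with the block, the interferon genes with a count and the 5 genes most like the RIG-I-like receptors, with the pseudocount of 0.5 CPM. Cell type markers were named for what they mark, and any other gene is said to be named after its values were seen. Counting intervals (95%) were computed with scipy and cover counting error only.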

Additional observations from a re-analysis of the deposited data

How the results depend on the processing

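By group alone, 0 genes and 0 members were called at the fold and adjusted p thresholds. The replicate block moved these counts to 890 genes and 6 members, and DESeq2 with the replicate block to 1028 genes and 7 members. With both libraries of replicate 2 left out, the blocked fit called 1639 genes and 7 members and the unblocked fit 507 genes and 7 members, while the same step for replicate 1 or replicate 3, added after seeing the data, gave 0 and 0 with the block. Other settings gave 0 members and 3 genes (upper-quartile factors), 430 genes (DESeq2), 9 genes (no filter), 3 genes (at least 10 counts in every library, where Zbp1 was not tested) and 1 gene (limma on TPM). Leaving out 1 library gave 0 to 105 genes and 0 to 1 members, the upper values without siNC replicate 2. The median log2 fold change of the members, 1.03, lay between 0.50 without siPkm2 replicate 2 and 2.02 without siNC replicate 2. Mavs reversed to 0.0305 without siNC replicate 2 (range -0.37 to 0.0305), and Zbp1 reversed to -0.30 without siPkm2 replicate 2 (range -0.30 to 7.24). Pathway genes called went from 0 to 6 with the replicate block, 7 with the block under DESeq2, 7 and 6 with replicate 2 left out with and without the block, and 1 without siNC replicate 2. The other members kept their direction in all settings run. The cause was not tested. Member calls were made with all 6 libraries only under the block, and without the block only where siNC replicate 2 or both replicate 2 libraries were left out.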

Other observations

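Of 10 genes of cytosolic DNA and endosomal nucleic acid sensing, 6 were tested. With the replicate block, 3 of them were called higher in siPkm2, against 2.65% of all genes tested. None was called by group alone, against 0.0% of all genes tested. Sting1, the adaptor that receives the signal of the DNA sensor cGAS, measured 21.8, 34.1 and 17.2 CPM in siNC 1, 2 and 3 and 40.3, 60.15 and 45.8 CPM in siPkm2 1, 2 and 3. All siPkm2 libraries were above all siNC libraries, and the gene rose by 1.03 on the log2 scale with the block (SE 0.14, adjusted p = 0.0142 by edgeR), with 1.00 by group alone (adjusted p = 0.174). Trex1, the cytosolic exonuclease that degrades DNA, measured 4.76, 22.2 and 9.50 CPM in siNC and 15.3, 44.6 and 18.8 CPM in siPkm2, so siNC 2 lay above siPkm2 1 and siPkm2 3. It rose by 1.21 with the block (SE 0.17, adjusted p = 0.0142 by edgeR), with 1.11 by group alone (adjusted p = 0.429). Ifi204, a DNA-binding member of a family of near-identical genes whose reads may be shared, measured 10.7, 81.2 and 8.63 CPM in siNC and 95.9, 207 and 80.6 CPM in siPkm2 (log2 fold change 2.55 with the block, SE 0.41, adjusted p = 0.0176 by edgeR, and 1.93 by group alone, adjusted p = 0.344). Its siNC 2 value lay just above siPkm2 3.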
